A study of Mus musculus with 4 samples.

Results

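Insulin and the insulin-like growth factors act through 2 related receptor tyrosine kinases, and their signal is shaped on both sides of the membrane. Here the transcripts of 10 genes of this system were followed in cultured mouse mammary cells: the receptors Igf1r and Insr, the adaptors Irs1 and Irs2, and the secreted binding proteins Igfbp2, Igfbp3, Igfbp4, Igfbp5, Igfbp6 and Igfbp7. They were chosen by gene symbol, with earlier results of these data known, from a table of 54446 genes. Of the 10, 9 were above 0 in all 4 libraries, as were 17787 genes in all. RNA was sequenced from FACS-sorted C57BL/6 wild type mammary cells, labelled basal or luminal, that were grown in 3D Matrigel culture. They received either DMSO, the control, or 100 μM baicalin, a flavone glucuronide from the skullcap plant Scutellaria baicalensis. The study's methods state that baicalin was dissolved in saline. Whether the baicalin cultures also held DMSO is not given in the sources used here. Each of the 4 conditions (basal DMSO, basal baicalin, luminal DMSO and luminal baicalin) was 1 library, so none of the differences below has a replicate check and no p-value is given. All 4 cultures shared the medium, which contained an insulin, transferrin and selenium supplement as well as EGF, so insulin was present in the DMSO controls too. The study took cells from virgin females a few weeks old or from females at other stages, and which of these, and how many mice, lay behind each library is not given in the sources used here.

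In this system a ligand binds Igf1r or Insr, the activated receptor phosphorylates Irs1 or Irs2, and these adaptors recruit PI3K, which activates AKT and, through it, the growth regulator mTOR. AKT also keeps FOXO transcription factors out of the nucleus. The binding proteins hold the insulin-like growth factors outside the cell, and proteases that cut them release the ligand. In the mammary gland the pathway is known for its part in ductal outgrowth and in the survival of epithelial cells, and Igfbp5 for its rise when the gland regresses after lactation.

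Values are FPKM, the fragments counted on a gene per kilobase of its exons, scaled to the fragments of the library. The depth used in this scaling was between 19356106 and 20648792 fragments per library, as recovered from the steps in the low values. Fragments summed over genes came to between 19818946 and 21229230, more than that depth in each library. Between 20898 and 22099 genes were above 0. A change is log2((FPKM + 1)/(FPKM + 1)), which understates the difference for low genes, and a change was counted when it was larger than 1. Ratios of plain FPKM are given with 95% intervals (exact, Clopper-Pearson) from the fragments behind them, and these cover counting error only. In bulk RNA, fewer cells that use a gene and less of its RNA per cell cannot be told apart.

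The library labels went against most markers of the 2 epithelial layers. All 10 basal markers examined, among them Krt5, Krt14, Acta2 and Trp63, were higher in the luminal-labelled than in the basal-labelled library under both treatments, with a summed level of 5040 against 1682 FPKM under DMSO and 6085 against 460 FPKM under baicalin. Of 10 luminal markers, including Krt8, Krt18 and Epcam, 2 were higher in the luminal-labelled library under DMSO and 1 under baicalin, and their sum was 1196 against 4038 FPKM and 986 against 2684 FPKM. The markers that went with the labels were Pgr, at 4.81 against 1.08 FPKM under DMSO and 2.09 against 0.912 under baicalin, and, under DMSO, Esr1, at 1.44 against 0.992 FPKM. Per the study's methods the cells were sorted with CD24 and CD29 antibodies and the purity of the sorts was checked. The libraries are therefore called by their labels throughout, and every difference between the labels below has a direction that rests on labels most of these markers went against. None of these 20 markers was at 0 in any library.

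With baicalin, Irs2 was higher and Igfbp5 lower in the libraries of both labels, while Igfbp3 and Igfbp7 also passed the threshold downwards in the basal-labelled pair. In the basal-labelled pair 1 of the 9 members tested was past 1 upwards, against 2.15% of all 17787 genes, and 3 were past it downwards, against 3.33%. In the luminal-labelled pair 1 member was past 1 upwards, against 2.37% of all genes, and 1 downwards, against 1.59%. These shares depend on the 1 FPKM added, which keeps many low genes inside the threshold. With no pseudocount they were 7.31% upwards and 8.32% downwards in the basal-labelled pair, beside 1 and 4 members. In the luminal-labelled pair they were then 6.58% and 6.21%, beside 1 and 2 members. With 1 FPKM added, the median change of the 9 members was -0.52 in the basal-labelled and -0.14 in the luminal-labelled pair. The medians of all genes were 0.01 and -0.02. Past the threshold in the same direction in both pairs were Irs2 upwards, where 0.596% of all genes were, and Igfbp5 downwards, where 0.455% were. Irs2 and Igfbp5 are thus the members whose change exceeded the threshold in each pair.

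**Figure D1:**
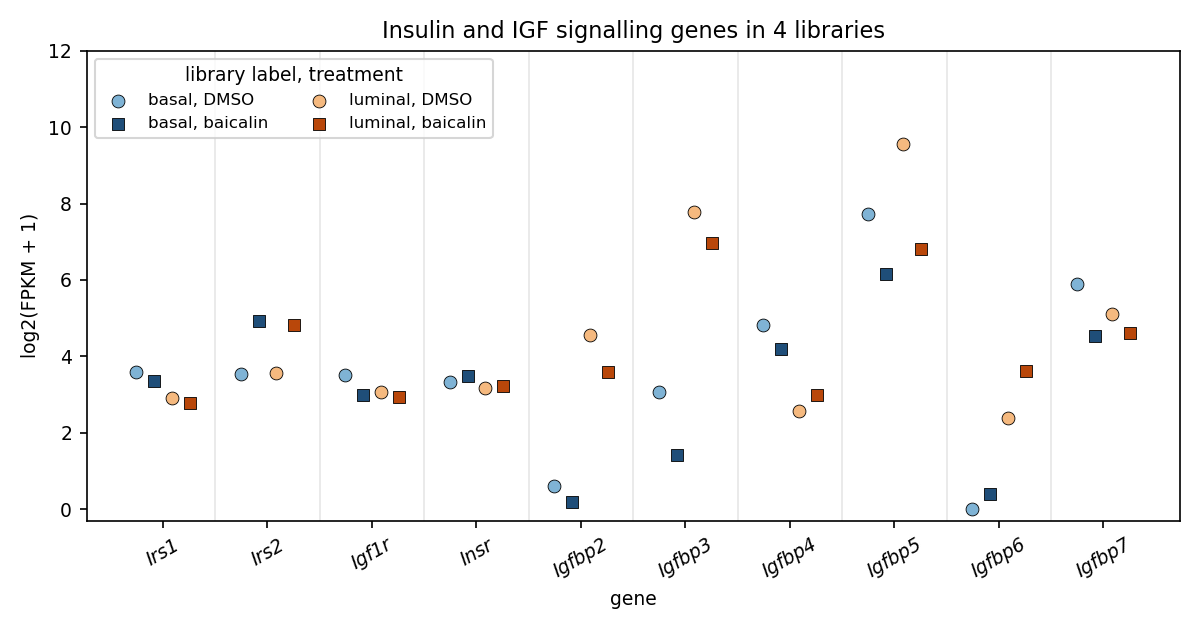
Level of each of the 10 genes in the 4 libraries, as log2(FPKM + 1) on the vertical axis, with circles for DMSO, squares for baicalin, blue for the basal and orange for the luminal label; each point is 1 library. The squares of Irs2 lie above its circles and those of Igfbp5 below them under both labels, whereas Igfbp2, Igfbp3 and Igfbp6 are separated mainly by label.

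The 2 insulin receptor substrates diverged. Irs2 (ENSMUSG00000038894, chr8:10984681-11008458 on the minus strand of GRCm38), the adaptor through which much of the metabolic insulin signal passes in liver, was at 10.7 FPKM in the basal-labelled DMSO library, 29.3 in basal baicalin, 10.8 in luminal DMSO and 27.5 in luminal baicalin. Both baicalin libraries stood above both DMSO libraries, and the DMSO levels were almost equal: the luminal to basal ratio under DMSO was 1.01, with an interval of 0.939 to 1.09. The baicalin to DMSO ratio was 2.74 (2.57 to 2.92) in the basal-labelled pair and 2.54 (2.38 to 2.70) in the luminal-labelled pair, on 1341 against 3755 and 1325 against 3585 fragments. On the log2 scale these changes were 1.37 and 1.27, and 147 and 238 of the 17787 genes had a larger one. The luminal change minus the basal change was -0.11.

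Irs1 (ENSMUSG00000055980, chr1:82233101-82291416, minus strand), the adaptor known for its role in body growth, was at 11.1 FPKM in basal DMSO, 9.19 in basal baicalin, 6.52 in luminal DMSO and 5.82 in luminal baicalin. It was lower with baicalin under both labels, with a ratio of 0.829 (0.776 to 0.884) and 0.893 (0.821 to 0.970), changes of -0.25 and -0.14 that stay well inside the threshold. The levels of the 2 adaptors under basal DMSO could not be separated, with an Irs2 to Irs1 ratio of 0.963 (0.898 to 1.03). That ratio, which was examined after the values had been seen, was 3.19 (3.01 to 3.38) in basal baicalin, 1.66 (1.53 to 1.80) in luminal DMSO and 4.72 (4.41 to 5.05) in luminal baicalin. Irs2 was thus the more abundant of the pair, per length, in each library except basal DMSO. Irs1 shares 2822 exon bases with Gm9747 on the opposite strand, which was listed at 0 in every library, and Irs2 shares 162 with 9530052E02Rik, which was at most 0.210 FPKM. Whether fragments were assigned by strand is not given in the sources used here, so reads of such overlaps may be shared.

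The stretches before the starts of Irs2, Irs1 and Igfbp5 are shown because these genes carry the contrast between the adaptors and the largest decrease; no binding or chromatin was measured in this series. They come from RefSeq on GRCm38.p6, are written 5′ to 3′ on the strand of the gene, and end at the base before the RefSeq start, or, for Igfbp5, before the earlier start of the GENCODE gene. Capitals mark letters that match 1 of 5 short motifs on either strand: the forkhead core TGTTTAC, the CEBP-ATF composite TGATGCAA, the antioxidant response element core TGACNNNGC, the TATA box TATAAA and the GC box GGGCGG.
Irs2, chr8:11008930-11009179, minus strand: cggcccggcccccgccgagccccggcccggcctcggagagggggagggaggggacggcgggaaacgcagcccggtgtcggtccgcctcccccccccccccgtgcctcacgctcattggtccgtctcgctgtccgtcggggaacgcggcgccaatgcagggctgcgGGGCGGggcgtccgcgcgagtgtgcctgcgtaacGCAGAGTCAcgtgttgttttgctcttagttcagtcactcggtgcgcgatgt
Irs1, chr1:82291440-82291689, minus strand: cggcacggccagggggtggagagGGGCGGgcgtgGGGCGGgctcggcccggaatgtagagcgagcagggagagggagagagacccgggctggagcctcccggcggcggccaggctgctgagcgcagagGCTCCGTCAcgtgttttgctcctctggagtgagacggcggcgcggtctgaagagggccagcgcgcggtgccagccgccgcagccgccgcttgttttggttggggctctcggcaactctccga
Igfbp5, chr1:72874885-72875115, minus strand: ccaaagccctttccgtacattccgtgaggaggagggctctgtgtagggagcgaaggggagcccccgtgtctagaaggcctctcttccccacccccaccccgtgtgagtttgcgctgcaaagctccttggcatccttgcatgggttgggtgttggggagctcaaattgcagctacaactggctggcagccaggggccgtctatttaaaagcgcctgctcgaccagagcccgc

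RefSeq windows of 250 bases were matched for 9 of the 10 members; Insr had no entry in the table. Irs2 and Irs1 each held 1 antioxidant response element core, 51 and 122 bases before the start, a motif found in 10.2% of 32851 mouse windows and in none of the other 7 members matched. GC boxes, present in 32.7% of all windows, were found in 5 members, Irs1, Irs2, Igf1r, Igfbp2 and Igfbp7, and a TATA box, present in 12.4%, in Igfbp4 and Igfbp6. The forkhead core, found in 3.17% of windows, and the CEBP-ATF composite, found in 0.791%, had no match in any member. The windows of Irs2 and Irs1 were 72.8% and 72.4% G or C with 34 and 28 CpG steps, and that of Igfbp5 58.8% with 10, where the median of all windows was 52.4%. A match says only that these letters are present.

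Of the receptors, Igf1r was lower with baicalin and Insr nearly level. Igf1r (ENSMUSG00000005533, chr7:67952827-68233668, plus strand), the receptor for both insulin-like growth factors, was at 10.4 FPKM in basal DMSO, 6.92 in basal baicalin, 7.39 in luminal DMSO and 6.68 in luminal baicalin. The basal DMSO library was the high one, and the other 3 were close together. Its ratio with baicalin was 0.667 (0.632 to 0.703) in the basal-labelled pair and 0.904 (0.854 to 0.958) in the luminal-labelled pair, changes of -0.52 and -0.13, neither past the threshold. Insr (ENSMUSG00000005534, chr8:3122061-3279617, minus strand), the insulin receptor, was at 9.08 FPKM in basal DMSO, 10.1 in basal baicalin, 7.998 in luminal DMSO and 8.38 in luminal baicalin. Its ratio was 1.12 (1.06 to 1.18) and 1.05 (0.988 to 1.11), so the second could not be told from no change at this depth. The Igf1r to Insr ratio was 1.14 (1.09 to 1.20) in basal DMSO and 0.682 (0.646 to 0.721) in basal baicalin. Under the luminal label it was 0.924 (0.871 to 0.980) with DMSO and 0.798 (0.753 to 0.845) with baicalin, so Igf1r exceeded Insr per length in the basal DMSO library alone.

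Transcripts of the ligands of these receptors were nearly absent from the libraries. Igf1 was at 0.0610 FPKM in basal DMSO, 0.0299 in basal baicalin, 0.115 in luminal DMSO and 0.0538 in luminal baicalin, on at most 22 fragments. Igf2 had at most 3 fragments in a library, and Ins1 and Ins2 were listed at 0 in all 4. The insulin of the medium leaves no transcript. Igf2r, which carries Igf2 to the lysosome and does not signal as a kinase, was the most abundant receptor transcript, at 76.8 FPKM in basal DMSO, 60.0 in basal baicalin, 33.9 in luminal DMSO and 37.4 in luminal baicalin. The insulin receptor-related gene Insrr had 1 fragment in all 4 libraries together.

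The binding proteins held the largest values and the largest changes of the members. Igfbp5 (ENSMUSG00000026185, chr1:72857932-72874884, minus strand), the binding protein of gland regression, was at 211 FPKM in basal DMSO, 70.3 in basal baicalin, 749 in luminal DMSO and 111 in luminal baicalin. Each baicalin library was below both DMSO libraries, and in luminal DMSO the gene ranked 31 among all genes by level, against 339 in luminal baicalin. It was 3.01-fold lower with baicalin in the basal-labelled pair (ratio 0.333, 0.325 to 0.341) and 6.76-fold lower in the luminal-labelled pair (ratio 0.148, 0.145 to 0.151), on 25191 against 8562 and 87073 against 13749 fragments. On the log2 scale the changes were -1.57 and -2.75, and 242 and 14 of the 17787 genes had a lower value. The luminal change minus the basal change was -1.17.

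Igfbp3 (ENSMUSG00000020427, chr11:7206086-7213923, minus strand), the main carrier of the growth factors in blood, was at 7.43 FPKM in basal DMSO, 1.67 in basal baicalin, 219 in luminal DMSO and 123 in luminal baicalin. The 2 labels were far apart, with the lower luminal value above the higher basal value. With baicalin it was 4.45-fold lower in the basal-labelled pair (ratio 0.225, 0.180 to 0.278, log2 change -1.66) and had a ratio of 0.564 (0.548 to 0.580, log2 change -0.82) in the luminal-labelled pair. The difference between these changes was 0.84, and it was 1.33 with no pseudocount, so whether it passes 1 depends on how the low basal values are treated.

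Igfbp7 (ENSMUSG00000036256, chr5:77349240-77408041, minus strand), a matrix-associated relative that binds the growth factors weakly, was at 58.9 FPKM in basal DMSO, 22.0 in basal baicalin, 33.7 in luminal DMSO and 23.6 in luminal baicalin. Both baicalin libraries were below both DMSO libraries, and the baicalin levels could not be separated by label (luminal to basal ratio 1.07, 0.953 to 1.21). It was 2.68-fold lower in the basal-labelled pair (ratio 0.374, 0.338 to 0.413, log2 change -1.38) and had a ratio of 0.702 (0.630 to 0.782, log2 change -0.49) in the luminal-labelled pair. It shares 85 exon bases with Polr2b on the opposite strand, which lay between 21.4 and 31.9 FPKM.

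Igfbp2 (ENSMUSG00000039323, chr1:72824503-72852474, plus strand), a binding protein that can also bind integrins, was at 0.518 FPKM in basal DMSO, 0.134 in basal baicalin, 22.5 in luminal DMSO and 11.1 in luminal baicalin. The basal values rest on 19 and 5 fragments and the luminal ones on 806 and 423. Its baicalin ratio was 0.258 in the basal-labelled pair, with a wide interval of 0.0752 to 0.713, and 0.492 (0.436 to 0.554) in the luminal-labelled pair. The changes, -0.42 and -0.96, stayed inside the threshold with 1 FPKM added and passed it in both pairs with no pseudocount.

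Igfbp4 (ENSMUSG00000017493, chr11:99041244-99054392, plus strand), a binding protein that restrains the growth factors until the protease Pappa cuts it, went in opposite directions. It was at 27.1 FPKM in basal DMSO, 17.1 in basal baicalin, 4.96 in luminal DMSO and 6.88 in luminal baicalin. Its ratio with baicalin was 0.632 (0.593 to 0.675) in the basal-labelled and 1.39 (1.22 to 1.57) in the luminal-labelled pair, and the changes of -0.63 and 0.40 differed by 1.03. The 2 labels remained apart under either treatment, with both basal-labelled libraries above both luminal-labelled ones.

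Igfbp6 (ENSMUSG00000023046, chr15:102144362-102149511, plus strand), which prefers Igf2 over Igf1, was listed at 0 FPKM in basal DMSO and was at 0.310 in basal baicalin, 4.23 in luminal DMSO and 11.2 in luminal baicalin, on 0, 7, 91 and 258 fragments. A count of 0 there allows up to 0.136 FPKM, the level of 3 fragments. It was the only member left out of the counts, because of the 0. In the luminal-labelled pair it was 2.66-fold (2.09 to 3.41) higher with baicalin, a change of 1.23, so 2 binding proteins, Igfbp4 and Igfbp6, were higher with baicalin there while 4 were lower. In the basal-labelled pair it was 2.28-fold higher when the 0 is set to a floor of 3 fragments per library. The counting interval of the ratio, taken with the 0 itself, starts at 1.41.

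**Figure D2:**
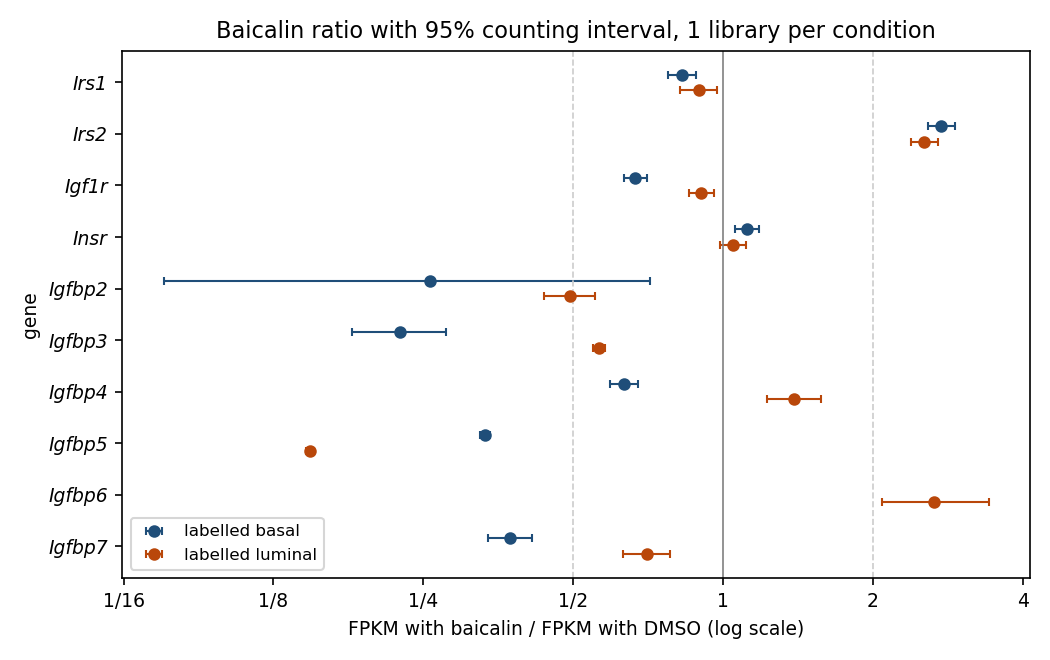
FPKM with baicalin divided by FPKM with DMSO for each gene, on a log scale, in the libraries labelled basal (blue) and luminal (orange); points are ratios of 1 library to another, bars are 95% counting intervals, and the dashed lines mark 1/2 and 2. Irs2 lies to the right of 2 in both pairs at 2.74 and 2.54, Igfbp5 lies left of 1/2 in both at 0.333 and 0.148, and Igfbp4 is on opposite sides of 1; Igfbp6 has no basal point because its DMSO value was 0.

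The make-up of the binding proteins, not only their amount, differed between the libraries. Igfbp1, the liver member of the family, was listed at 0 in all 4, and the FPKM of Igfbp1 to Igfbp7 summed to 305 in basal DMSO, 112 in basal baicalin, 1033 in luminal DMSO and 287 in luminal baicalin. The luminal DMSO library held the largest sum, and the sum was lower with baicalin under both labels. Igfbp5 made up 69.2% of it in basal DMSO, 63.0% in basal baicalin and 72.5% in luminal DMSO, but 38.6% in luminal baicalin, where Igfbp3 was the first at 43.0%. The Igfbp3 share was 2.44%, 1.497% and 21.2% in the other 3 libraries, in the same order. Igfbp7 made up 19.3% and 19.7% under the basal label and 3.26% and 8.23% under the luminal label, so its share was nearly level in the basal-labelled pair although its own FPKM was lower. Igfbp4 went from 8.87% to 15.4% in the basal-labelled pair and from 0.480% to 2.40% in the luminal-labelled pair, and Igfbp6 reached 3.91% in luminal baicalin. Without Igfbp7, whose affinity is low, the Igfbp5 shares were 85.8%, 78.5%, 74.9% and 42.1%.

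**Figure D3:**
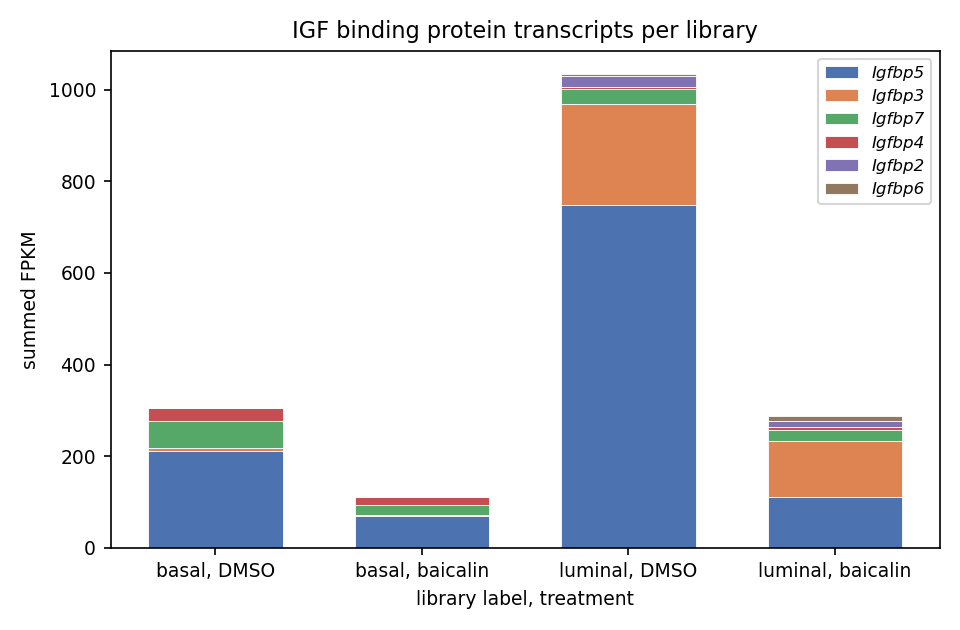
Summed FPKM of the IGF binding protein genes in each of the 4 libraries, stacked by gene; Igfbp1 was at 0 and is not drawn. The stack is tallest in luminal DMSO at 1033 FPKM and reaches 287 in luminal baicalin, where the Igfbp3 segment, 43.0%, is larger than that of Igfbp5, 38.6%.

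Between the labels, Igfbp2, Igfbp3 and Igfbp6 were the farthest apart, in an order under DMSO that depends on the pseudocount and on the 0 of Igfbp6. Under DMSO 3 of the 9 members tested (Igfbp2, Igfbp3 and Igfbp5) were past 1 towards the luminal label, against 4.71% of all genes, and 1 (Igfbp4) towards the basal label, against 3.86%. Under baicalin 2 (Igfbp2 and Igfbp3) were past it towards the luminal label, against 5.24%, and again Igfbp4 alone towards the basal label, against 2.99%. Igfbp3 was 29.4-fold (26.8 to 32.4) higher under the luminal label with DMSO and 73.9-fold (61.0 to 90.4) higher with baicalin, log2 differences of 4.70 and 5.54 that only 7 and 8 genes exceeded. Igfbp2 was 43.5-fold (27.7 to 72.7) and 83.1-fold (35.3 to 257) higher. Igfbp6 was 31.1-fold higher with DMSO when its 0 is set to 3 fragments, with an interval that starts at 24.8, and 36.2-fold (17.3 to 91.0) with baicalin. Igfbp5 was 3.55-fold (3.50 to 3.60) higher under the luminal label with DMSO and 1.58-fold (1.54 to 1.62) with baicalin, which took it inside the threshold. Igfbp4 had luminal to basal ratios of 0.183 (0.165 to 0.203) and 0.401 (0.365 to 0.441). The adaptors and receptors were closer, with log2 differences between -0.68 and 0.02 under DMSO and between -0.58 and -0.04 under baicalin.

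Marker genes of other cell types moved with some of these values, and their part in them was not tested. All 4 adipocyte markers were higher under the luminal label with either treatment, as were Igfbp2, Igfbp3, Igfbp5 and Igfbp6, with sums of 0.163 FPKM in basal DMSO, 0.884 in basal baicalin, 15.8 in luminal DMSO and 5.45 in luminal baicalin. Cidec was at 0 in both basal-labelled libraries, Plin1 in basal DMSO and Adipoq in basal baicalin. The 4 endothelial markers were likewise all higher under the luminal label with either treatment. They summed to between 0.848 and 3.19 FPKM, with none at 0. Of the 6 fibroblast markers 1 was higher under the luminal label with DMSO, Pdgfra at 6.30 FPKM, and all 6 with baicalin. The fibroblast markers summed to between 2.60 FPKM in basal baicalin and 10.4 in luminal DMSO, with none at 0. The 4 immune markers summed to between 4.51 and 51.6 FPKM, nearly all of it Cd68, while Ptprc, the pan-leukocyte marker, was at most 0.0138 and Cd3e was at 0 in 3 of the 4 libraries. Within the basal-labelled pair 9 of 10 basal and 9 of 10 luminal markers were lower with baicalin, and the basal sum went from 1682 to 460 FPKM beside the lower Igfbp3, Igfbp5 and Igfbp7. Most of that sum was Krt14, from 1494 to 417 FPKM, while Krt5 went from 128 to 3.01 and Trp63 from 6.01 to 0.306. The basal marker that was higher was Myh11, at 0.0729 and 0.0843 FPKM. In the luminal-labelled pair, where Igfbp5 was lower, 6 of 10 basal markers, 9 of 10 luminal markers and all 4 adipocyte markers were lower with baicalin. The basal sum was higher there, 6085 against 5040 FPKM, through Krt5 and Krt14, while Lgr5 went from 17.7 to 1.93 FPKM, Oxtr from 19.4 to 3.61, Cnn1 from 11.7 to 3.43 and Acta2 from 555 to 417.

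The baicalin changes of the 2 labels were then set against each other, gene by gene. The luminal change minus the basal change was past 1 upwards for 1 of the 9 members (Igfbp4, 1.03), against 4.41% of all genes, and downwards for 1 (Igfbp5, -1.17), against 2.65%. For Igfbp7 the difference was 0.89 and for Igf1r 0.40. For Igfbp2 it was -0.54 with 1 FPKM added but 0.39 with 0.1 FPKM and 0.93 with none, so its direction is set by the pseudocount. Irs1, Irs2 and Insr differed by at most 0.11 in size, the closest of the set. With 1 library per condition the interaction itself could not be tested.

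A list of 66 further genes of the pathway, sorted by role, was read in the same way, and 56 were above 0 in all 4 libraries. In the basal-labelled pair 8 were higher by more than 1 and 2 lower, where 2.15% and 3.33% of all genes were. In the luminal-labelled pair 5 were higher and 0 lower, where 2.37% and 1.59% of all genes were. The list was chosen with earlier results of these data known, so setting its counts beside these shares is a description and not a test. The list medians, 0.05 and -0.0012, lay near those of all genes. Higher by more than 1 in both pairs were 4 genes: Trib3, Sesn2, Eif4ebp1 and Pdk4. Trib3, a pseudokinase that binds AKT, was at 20.1 FPKM in basal DMSO, 90.5 in basal baicalin, 4.98 in luminal DMSO and 32.2 in luminal baicalin, changes of 2.11 and 2.47. Sesn2, a stress-responsive inhibitor of mTOR complex signalling, was at 6.45, 28.1, 10.6 and 26.2 FPKM in the same order, changes of 1.97 and 1.23. Eif4ebp1, the repressor of translation that mTOR switches off, was at 18.4, 51.5, 15.5 and 33.5 FPKM, changes of 1.43 and 1.07. These 3 are negative regulators in this pathway, though Trib3 and Sesn2 are also known targets of amino acid and endoplasmic reticulum stress. Pdk4, a kinase that shuts glucose carbon out of mitochondria and a known FOXO target, was at 4.73, 10.6, 1.81 and 10.1 FPKM, changes of 1.02 and 1.98. The 7 FOXO factors and targets tested, Pdk4 among them, had median changes of 0.13 and -0.15. Their changes spread widely, from -0.26 to 1.38 in the basal-labelled pair and from -0.81 to 1.98 in the luminal-labelled pair.

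Of the 4 genes tested among the proteases, inhibitors and other partners of the binding proteins, 1 was past 1 upwards and 1 downwards in the basal-labelled pair. The shares of all genes there were 2.15% and 3.33%. In the luminal-labelled pair 1 of the 4 was past it upwards, against 2.37% of all genes. Pappa, the protease that cuts Igfbp4 and Igfbp5, was at 5.88 FPKM in basal DMSO, 2.27 in basal baicalin, 1.79 in luminal DMSO and 1.502 in luminal baicalin, a change of -1.08 in the basal-labelled pair. Stc2, which blocks Pappa, was at 6.70, 23.5, 13.1 and 15.6 FPKM in the same order, a change of 1.67 in the basal-labelled pair. Htra1, a serine protease that can also cut binding proteins, was at 47.2, 62.6, 28.4 and 67.0 FPKM, a change of 1.21 in the luminal-labelled pair. In the basal-labelled pair, lower Pappa and higher Stc2 stood beside lower Igfbp2, Igfbp3, Igfbp4, Igfbp5 and Igfbp7. Htra1 was higher there, as was Igfbp6, on 0 and 7 fragments.

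Beside the receptors, Grb10, an adaptor that dampens the insulin receptor, was at 8.22 FPKM in basal DMSO, 19.3 in basal baicalin, 0.739 in luminal DMSO and 2.46 in luminal baicalin, changes of 1.14 and 0.99. Socs2, a feedback inhibitor of growth hormone signalling, was at 5.14, 11.7, 3.60 and 4.84 FPKM in the same order, with a change of 1.05 in the basal-labelled pair. Both were higher with baicalin in each pair. Of the 21 genes of the PI3K, AKT and mTOR group, all tested, Eif4ebp1 alone was past 1 upwards in either pair, and Pik3r3, a regulatory subunit of PI3K, alone was past it downwards, at 11.5 and 3.92 FPKM in the basal-labelled pair against 8.18 and 9.38 in the luminal-labelled pair. Pik3r1, another regulatory subunit, named after its values were seen, was at 26.3 FPKM in basal DMSO, 39.6 in basal baicalin, 30.7 in luminal DMSO and 19.4 in luminal baicalin, ratios of 1.51 (1.46 to 1.56) and 0.633 (0.608 to 0.659) on opposite sides of 1. Akt1, the most abundant of the 3 AKT genes here, was at 76.4, 66.8, 65.2 and 63.3 FPKM, with no change past the threshold. Of the 14 brakes on the pathway 3 were past 1 upwards in the basal-labelled pair (Trib3, Sesn2 and Socs2), against 2.15% of all genes. In the luminal-labelled pair 2 were (Trib3 and Sesn2), against 2.37%. Past it downwards were 0 brakes in either pair, against 3.33% and 1.59% of all genes. The medians of the 14 were -0.04 and -0.11, so the 14 genes listed as brakes were not higher as a group. Eif4ebp1 and Grb10, described above as a negative regulator and a dampening adaptor, were listed under other roles and are not in these medians. The same shares of all genes stand beside the counts of the 21 genes. Txnip, an inhibitor of glucose uptake, was at 13.2 FPKM in basal DMSO, 35.8 in basal baicalin, 242 in luminal DMSO and 138 in luminal baicalin, so that it was higher with baicalin in 1 pair, by 1.38, and lower in the other.

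**Figure D4:**
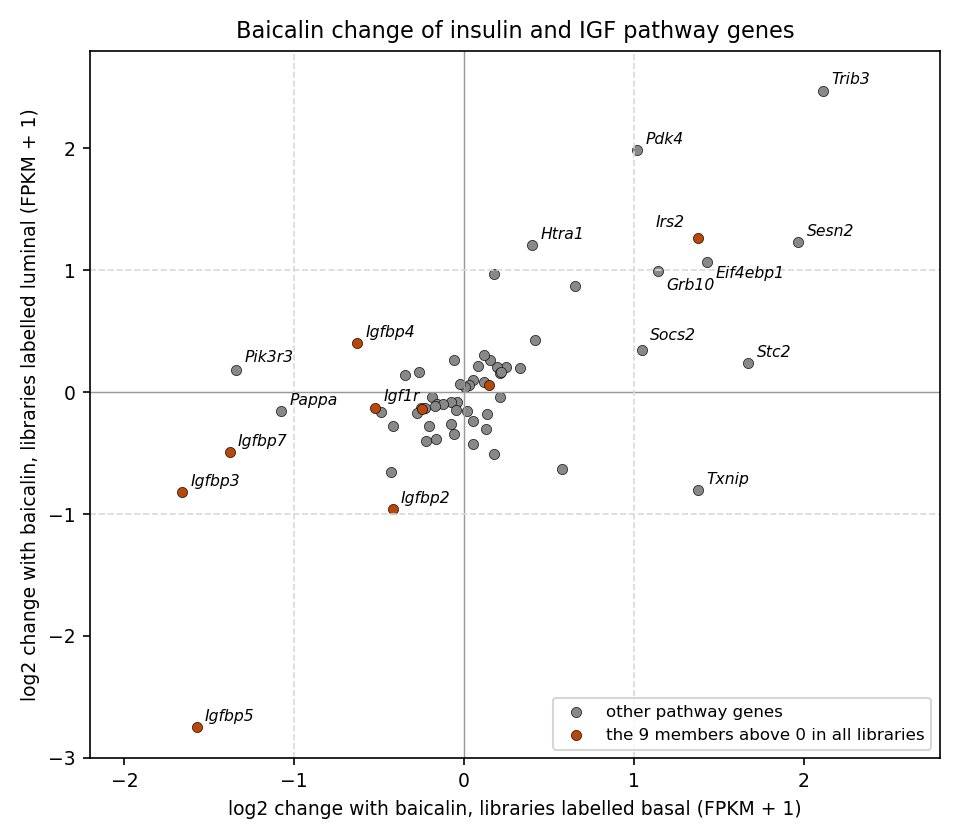
Change with baicalin, as log2((FPKM + 1)/(FPKM + 1)), in the libraries labelled basal (horizontal) and luminal (vertical) for the 9 members above 0 in all libraries (orange) and 56 further pathway genes (grey); dashed lines mark 1 and -1, and genes far from the centre are named. Irs2 lies in the upper right with Trib3, Sesn2, Eif4ebp1 and Pdk4, and Igfbp5 lies alone at the lower left at -1.57 and -2.75.

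Profiles over the 4 libraries were compared by the Euclidean distance between log2(FPKM + 1) values centred on each gene's mean, a description over 4 points. Among the members and the pathway list, the profile nearest to Irs2 was that of Eif4ebp1, at a distance of 0.412, followed by Sesn2 at 0.521. Igfbp7 was nearest to Pappa at 0.594, followed by Igf1r at 0.667. Igfbp3 was nearest to Igfbp2 at 1.69, Igfbp6 to Txnip at 1.61 and Igfbp5 to Socs3 at 2.01. The profiles were centred but not scaled, so genes with a wide range can lie far apart although their shapes are alike. The family also has neighbours in the genome: Igfbp2 and Igfbp5 lie tail to tail on chromosome 1 with 5457 bases between them, and Igfbp1 and Igfbp3 on chromosome 11 with 3539. The first pair was alike in being higher under the luminal label, and in the second Igfbp1 was at 0 beside an Igfbp3 of up to 219 FPKM.

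Ordered by level, Igfbp5 stood first among the members in each library except luminal baicalin, where Igfbp3 was first at 123 FPKM and Igfbp5 next at 111. Irs2 was in place 5 under DMSO with either label, in place 2 in basal baicalin and in place 3 in luminal baicalin. Neighbours in these orders that lay close were Irs1 and Irs2 in basal DMSO, at 11.1 and 10.7 FPKM, and Igfbp6 and Igfbp2 in luminal baicalin, at 11.2 and 11.1 FPKM. Irs1 went from place 4 in basal DMSO to the last place in luminal baicalin.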

How the data were processed

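RNA from FACS-sorted, 3D-cultured mouse mammary cells was measured in 4 libraries, 1 for each label and treatment. The authors deposited 1 table of FPKM values per gene for all libraries. Per the study's methods, oligo (dT)-selected stranded libraries were aligned with HISAT2 to GRCm38 and counted with featureCounts, whereas the submitters' processing notes name Bowtie 0.12.2 and list mm8 beside GRCm38. The strand setting is not given in the sources used here. Exon lengths and positions were taken from GENCODE on GRCm38, and 37 genes had none. Whole fragments were recovered from FPKM times exon length, and between 98.8% and 99.0% of low values (under 30 fragments) came out whole within 0.1 of a fragment. Depth was recovered from those steps, so the intervals cover counting error only.

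Changes were computed as log2((FPKM + 1)/(FPKM + 1)) over the genes above 0 in all 4 libraries, with a threshold of 1. With 1 library per condition no test was run; the study's t-test needs replicates. Intervals are exact Clopper-Pearson at 95%. The genes named are the 10 members, the ligands, the other receptors, Igfbp1, pathway genes past 1 in a baicalin comparison and the nearest profiles; Akt1 and Pik3r1 were named after their values were seen. The members and the lists of pathway and marker genes were chosen with earlier results of these data known. Alternatives were other pseudocounts, thresholds and filters, TPM and centring. The scripts were tested on simulated data. Computation was in Python 3.11.15 (scipy 1.17.1, with pandas 2.3.3, numpy 2.4.6 and, for plots, matplotlib 3.10.9). Libraries with estrogen and progesterone were not analysed here.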

Additional observations from a re-analysis of the deposited data

Results flagged for a closer look

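Igfbp4, Pik3r1, Pik3r3 and Txnip moved in opposite directions with baicalin in the libraries of the 2 labels, with both counting intervals of the ratio on opposite sides of 1 and a difference past 1. The luminal change minus the basal change was 1.03 for Igfbp4, which went from 27.1 to 17.1 FPKM in the basal-labelled pair and from 4.96 to 6.88 in the luminal-labelled pair. It was 1.52 for Pik3r3, which went from 11.5 to 3.92 FPKM and from 8.18 to 9.38. It was -1.21 for Pik3r1, which went from 26.3 to 39.6 FPKM and from 30.7 to 19.4. It was -2.18 for Txnip, which went from 13.2 to 35.8 FPKM and from 242 to 138. With 1 library per condition none of these differences was tested.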

How the results depend on the processing

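No paired analysis was possible because each condition had 1 library. For the number of members past the threshold, all 5 comparisons stayed within 1.5 times of the reported count with a pseudocount of 0.1 FPKM or none, without a filter, with each of the 2 other filters on low values, on the TPM scale and after centring on the median of all genes. With a threshold of 2 the count was 0 in the basal-labelled pair, 1 in the luminal-labelled pair and 0 for the difference between them. With a threshold of 0.5 it was 4 in the luminal-labelled pair, 5 between the labels under baicalin and 5 for the difference. Counting each member whose ratio interval lay wholly on 1 side of 1, a rule chosen after seeing the data, gave 9 and 8 in the basal- and luminal-labelled pairs and 8 and 7 between the labels under DMSO and baicalin, since deep counting makes small ratios distinguishable without a replicate. Of the single values, 16 moved by more than their counting interval on the TPM scale, 8 with no pseudocount and 8 with a pseudocount of 0.1, and 16 shares moved without Igfbp7 in the sum. Values inside the threshold turned sign in 3 cases: the Igfbp2 difference between the labels, from -0.54 to 0.39 with a pseudocount of 0.1 and 0.93 with none, the Igfbp6 difference, from 0.84 to -0.65 with a pseudocount of 0.1, and Irs2 between the labels under DMSO, from 0.02 to -0.09 on the TPM scale. TPM moved the median of all genes to at most -0.10. Depth limits Igfbp2 and Igfbp6 under the basal label, with at most 19 fragments.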
